A study of Homo sapiens with 6 samples.

Results

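The genes described here encode the core machinery of autophagy, measured in the human breast cancer cell line T47D after inhibition of class I PI3 kinases. The list holds 37 genes chosen by function, and all 37 were measured, among 19775 genes on the arrays. Each gene is represented by 1 probe set: of those that name that gene alone, the one whose mean over all arrays was highest. The genes were sorted into 6 roles: the initiation complex (5 genes), the lipid kinase complex (6), PI3P effectors and membrane supply (6), conjugation enzymes (11), the ATG8 family (5) and cargo receptors (4).

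T47D is an established, oestrogen receptor-positive line of the luminal class, and both groups were grown in DMEM with serum, added amino acids and glutamine. GDC-0941, an inhibitor of class I PI3 kinases, was given for 6 hours to the cells of 3 arrays. The other 3 arrays are controls with no agent named; solvent is not mentioned for them, and all results come from this 1 line. The labelled dose is 1 mM, a unit that may have lost its micro sign. Nothing in the labels says that replicates are separate cultures, so the spread between arrays may be technical.

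Autophagy is the route by which a cell wraps part of its cytoplasm in a double membrane, the autophagosome, and delivers it to lysosomes for breakdown. The ULK kinase complex starts the process, and a class III PI3 kinase complex then makes the lipid PI3P at the site of membrane growth. Proteins that bind PI3P bring in lipid carriers and a pair of ubiquitin-like conjugation systems, which attach ATG8 proteins (the LC3 and GABARAP families) to the membrane. Cargo receptors link selected cargo to these ATG8 proteins. The PI3 kinase and AKT pathway restrains autophagy when nutrients and growth factors are plentiful, through mTORC1, which phosphorylates ULK1 and ATG13, and through FOXO and TFEB, factors that can raise transcription of autophagy genes. Transcript levels do not measure the rate of autophagy itself.

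Values are log2 RMA signals, where a difference of 1 is a doubling. The medians of the arrays were 7.34 to 7.38, and correlations across probe sets were r = 0.9970 to 0.9983 within groups and r = 0.9917 to 0.9942 between them. All 10 luminal markers (among them ESR1, GATA3 and KRT18) had control means of 11.62 to 14.34, above the median gene; 4 of them were called higher (PGR, FOXA1, CDH1 and XBP1) and 2 lower (KRT8 and KRT18). The 2 measured basal keratins, KRT5 and KRT14, were at 8.08 and 6.25, below it. Of 5 fibroblast genes 1 was called higher, COL1A1, from a control mean of 10.40. The log2 of that list's summed signal was 11.40 to 11.49 on treated and 10.97 to 11.12 on control arrays, and its part in the results was not tested. No leukocyte (3 measured) or endothelial (3 measured) marker was called. The control means were 6.23 for PTPRC, 6.20 for CD14 and 8.78 for CD3E, and 8.19 for VWF, 5.67 for CDH5 and 9.42 for PECAM1, with CD3E and PECAM1 above the median gene. In bulk RNA, fewer cells expressing a gene and less RNA per cell cannot be told apart.

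More autophagy genes were higher than lower after GDC-0941. At an adjusted p under 0.05 in limma, 16 of the 37 genes (43.2%) were called higher, where 12.1% of all genes were. The number called lower was 3 (8.11%), where 15.6% of all genes were. The remaining 18 did not pass. Of the 37 genes, 34 lay above the median level. With only genes above that level tested, 15 of the 34 were called higher and 3 lower. Of all genes in that fit, 23.2% were called higher and 31.4% lower. The median log2 difference of the 37 genes was 0.12, and that of all genes was -0.017. With the probe sets used and the values as deposited, no gene of the list reached a 2-fold change. The differences ran from -0.56 (ATG101) to 0.86 (NBR1), and 7 genes differed by at least 0.5 in size. A second RB1CC1 probe set rose by 1.01, and NBR1 rose by 1.03 with arrays centred on hybridisation controls (described below). In 26 of the 37 genes the treated and control arrays did not overlap, against 41.5% of all genes. Such counts describe the list and were not tested as a set, since the list was put together with earlier results of these arrays known.

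**Figure D1:**
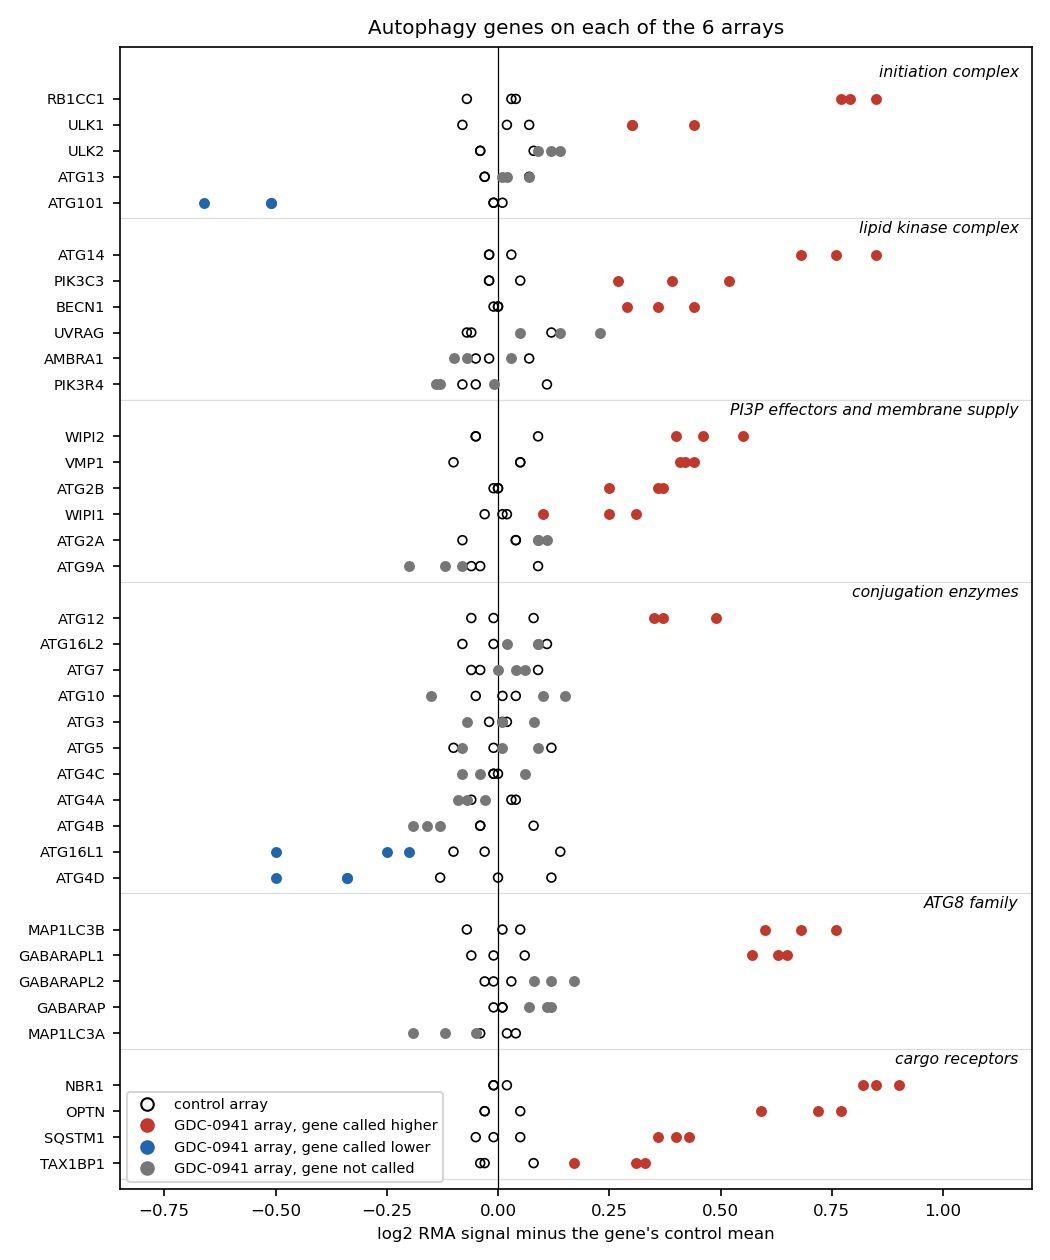
Each row is a gene, and each point is 1 array, plotted as its log2 RMA signal minus that gene's mean over the 3 control arrays; open circles are controls, and filled circles are GDC-0941 arrays coloured by the gene's call. The 4 cargo receptors, RB1CC1, ATG14, MAP1LC3B and GABARAPL1 sit clear to the right of their controls, ATG101, ATG4D and ATG16L1 sit to the left, and most conjugation enzymes overlap zero.

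The calls were spread unevenly over the roles. All 4 cargo receptors were called higher, with a median log2 difference of 0.55. A list of 14 further ATG8 genes and selective receptors, described below, had a median of 0.08. Among PI3P effectors and membrane supply genes 4 of 6 were called higher (median 0.27), and in the lipid kinase complex 3 of 6 (median 0.26), with none called lower in either. In the ATG8 family 2 of 5 were called higher and none lower (median 0.13), and in the initiation complex 2 of 5 higher and 1 lower (median 0.12). The conjugation enzymes had 1 of 11 called higher and 2 lower, with a median of 0.00. The difference between roles was not tested, as the groups hold few genes each.

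**Figure D2:**
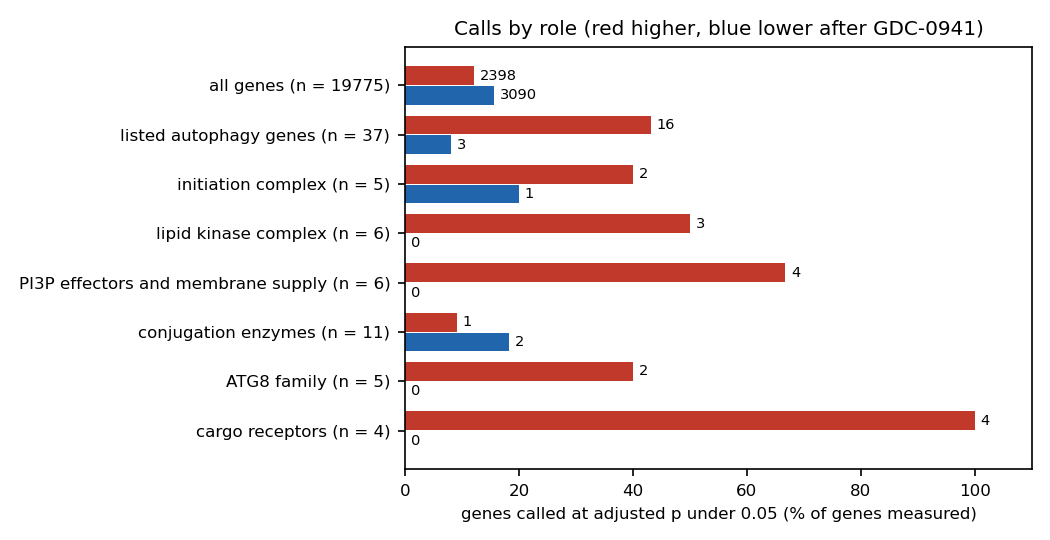
Bars give the percentage of measured genes called higher (red) or lower (blue) after GDC-0941 at an adjusted p under 0.05, for all 19775 genes, the 37 autophagy genes and each role; the number beside a bar is the count of genes. Every role except the conjugation enzymes has a larger share called higher than the 12.1% of all genes.

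Within the initiation complex, the scaffold RB1CC1 and the kinase ULK1 rose, and ATG101 fell. RB1CC1 (FIP200), the long scaffold on which the ULK complex assembles, read 11.35, 11.27 and 11.29 on the treated arrays and 10.53, 10.43 and 10.54 on the controls. It rose 1.75-fold, a log2 difference of 0.80 ± 0.06 (SE, adjusted p = 2.46e-06). Every treated array lay above every control, and its second probe set also rose, by 1.01. ULK1, the kinase that phosphorylates Beclin 1 and other early components, read 9.22, 9.22 and 9.36 under treatment and 8.99, 8.94 and 8.84 in controls. The groups did not overlap, and the rise was 1.27-fold (0.35 ± 0.06 SE, adjusted p = 0.00166). ATG101, which binds and stabilises ATG13, went the other way, with 10.56, 10.41 and 10.56 on treated arrays against 11.08, 11.06 and 11.06 on controls. It fell by 0.56 ± 0.06 on the log2 scale (SE, adjusted p = 4.14e-05), which made controls 1.47-fold higher. It has 1 probe set.

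The other two subunits did not pass and were not settled by their probe sets. ULK2, the paralog of ULK1, differed by 0.12 (95% interval -0.01 to 0.24). Of its 4 probe sets 1 was called higher, by 0.32, and the others differed by 0.12, 0.12 and -0.07. ATG13, the adaptor that carries mTORC1 and ULK1 phosphorylation sites, differed by 0.03 (-0.09 to 0.16) in the probe set used, while its 2 others were called higher, by 0.20 and 0.33. The reported value of ATG13 therefore depends on the probe set taken.

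In the lipid kinase complex, ATG14, BECN1 and PIK3C3 rose. These 3 genes encode core subunits of the form that acts at the start of autophagosome growth. ATG14, the subunit that directs the kinase to the endoplasmic reticulum, read 10.35, 10.18 and 10.26 on treated arrays against 9.53, 9.48 and 9.48 on controls. Its groups were well apart, with a log2 difference of 0.77 ± 0.06 (SE, adjusted p = 5.08e-06) from 1 probe set. PIK3C3 (VPS34), the catalytic subunit, read 9.45, 9.20 and 9.32 against 8.91, 8.91 and 8.98. It rose 1.31-fold (0.39 ± 0.07 SE, adjusted p = 0.00109), and the groups did not overlap. Of its 7 probe sets 3 were called higher and the other 4 differed by -0.01 to 0.15. Averaged over all 7, the difference was 0.18 and was still called. BECN1 (Beclin 1), the scaffold subunit, read 11.09, 10.94 and 11.01 against 10.64, 10.65 and 10.65. Every treated array exceeded every control (1.29-fold, 0.37 ± 0.06 SE, adjusted p = 0.000573). A second BECN1 probe set rose by 0.20, and the other, with a mean level of 5.53, differed by -0.03.

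The other three genes of this role overlapped between groups. PIK3R4 (VPS15), the regulatory subunit bound to PIK3C3, differed by -0.09 (-0.23 to 0.06), and none of its 3 probe sets was called. UVRAG, which takes the place of ATG14 in the endosomal form of the complex, differed by 0.15 (-0.01 to 0.30) and passed in 3 of 18 other settings. AMBRA1, a Beclin 1 partner, differed by -0.04 (-0.18 to 0.09), and its 5 probe sets lay between -0.13 and 0.04 with none called. The interval of PIK3R4 ended at 0.06, while those of PIK3C3 and BECN1 began at 0.24, but differences between genes were not tested.

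ATG14 was also 1 of 2 genes of the list with the E-box core CACGTG near its start, the core of the CLEAR element that TFEB and related factors bind. RefSeq promoter windows (GRCh38.p14, 250 bases before to 50 after each start) were found for 33 of the 37 genes. The core CACGTG, which is its own reverse complement, was in the windows of 2 of these 33 genes, against 10.87% of 15384 genes with a window, and in 7.26% of all 35116 windows. The longer form TCACGTGA, which contains that core, was in 1 of 33, ATG3 and not ATG14 (1.66% of genes, 0.98% of windows). The FOXO core GTAAACA, searched on both strands, was in none of the 33, against 3.76% of genes and 3.42% of windows. Windows were also found for 28 other genes of the pathway, which are not on the list and are described further below. Of these 28, CACGTG was in 6 (BNIP3, NRBF2, SNAP29, TBK1, VPS11 and VPS16) and TCACGTGA in 2 (NRBF2 and VPS11). GTAAACA was in 2 (CALCOCO2 and WDR45). Of these genes VPS11, CALCOCO2 and WDR45 were called higher, and the others were not called. Whether a motif bears on these values was not tested. The stretches of 120 bases that end at the base before the start are shown for both genes with a core match, 5′ to 3′ on the strand of the gene, to set a gene that rose beside one whose groups overlapped. Capitals mark CACGTG.
ATG14 (chr14:55411831-55411950, minus strand): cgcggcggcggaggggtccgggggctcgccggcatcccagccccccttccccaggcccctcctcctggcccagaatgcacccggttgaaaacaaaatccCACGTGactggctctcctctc
ATG3 (chr3:112561963-112562082, minus strand): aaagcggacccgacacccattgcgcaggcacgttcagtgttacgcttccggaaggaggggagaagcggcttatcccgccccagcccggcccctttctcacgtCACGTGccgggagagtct
The match begins 21 bases before the start in ATG14 and 18 bases before it in ATG3, which has another match, of the longer form, just after its start. Both promoters hold the core at nearly the same distance, and the transcripts differed by 0.77 (ATG14) and 0.00 (ATG3). Whether the core bears on either value was not tested. A match describes the letters only, and binding was not measured.

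PI3P effectors and membrane suppliers mostly rose. WIPI2, which binds PI3P and brings ATG16L1 to the membrane, read 10.86, 10.71 and 10.77 on treated arrays and 10.26, 10.26 and 10.40 on controls. It rose 1.39-fold (0.47 ± 0.06 SE, adjusted p = 0.000207), and 4 of its 5 probe sets were called higher, by 0.26 to 0.47. Averaged over all 5 the rise was 0.28. ATG2B, a carrier of lipids from the endoplasmic reticulum to the growing membrane, read 9.81, 9.70 and 9.82 against 9.45, 9.44 and 9.45. Its log2 difference was 0.33 ± 0.06 (SE, adjusted p = 0.00114) in the probe set used, and its others gave 0.83, 0.32 and 0.17, of which the last was not called. WIPI1, a paralog of WIPI2, rose by 0.22 (adjusted p = 0.0242), the weakest call of the 16. That call was lost in 5 of the 6 fits that left out 1 array, and its second probe set differed by 0.08.

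VMP1, a membrane protein of the endoplasmic reticulum that moves lipids between membrane leaflets, read 7.94, 7.91 and 7.92 on treated arrays against 7.55, 7.55 and 7.40 on controls. The groups were apart, with a log2 difference of 0.42 ± 0.06 (SE, adjusted p = 0.000277). This value is uncertain, because 3 further probe sets name both VMP1 and the microRNA gene MIR21. One of these, at a mean level of 11.77, differed by -0.06 without passing, and the other 2 were called higher, by 0.69 and 0.32. ATG2A, the paralog of ATG2B, differed by 0.10 (-0.03 to 0.22). ATG9A, the lipid scramblase of the vesicles that seed the autophagosome, differed by -0.13 (-0.27 to 0.01). In both of these genes the 3 treated arrays lay on one side of the controls without the call being made. The groups were apart in this way in 41.5% of all genes.

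The conjugation enzymes were the role with the fewest calls for its size. Of the 11, 9.09% were called higher and 18.2% lower, near the 12.1% and 15.6% of all genes. All of the 11 except ATG16L1 lay above the median level. With only genes above that level tested, 23.2% of them were called higher and 31.4% lower. ATG12, the ubiquitin-like protein that is joined to ATG5, was the 1 gene of the 11 that rose. It read 10.42, 10.28 and 10.30 on treated arrays against 9.87, 9.92 and 10.01 on controls (1.32-fold, 0.40 ± 0.06 SE, adjusted p = 0.000561). One more ATG12 probe set was called, at 0.34, and the other differed by -0.09. ATG5, the partner of ATG12, differed by 0.00 (-0.15 to 0.16), and none of its 3 probe sets was called. ATG7, the activating enzyme of both conjugation systems, differed by 0.03 (-0.10 to 0.17), and none of its 4 probe sets passed. ATG3 and ATG10, the enzymes that transfer ATG8 proteins and ATG12 in turn, differed by 0.00 (-0.13 to 0.13) and 0.03 (-0.14 to 0.20).

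ATG16L1, which completes the complex with ATG12 and ATG5, and the protease ATG4D were called lower. ATG4D read 8.55, 8.39 and 8.55 on treated arrays and 8.89, 8.76 and 9.01 on controls. It fell by 0.39 ± 0.07 on the log2 scale (SE, adjusted p = 0.00177), with controls 1.31-fold higher and no overlap. ATG16L1 read 7.71, 7.41 and 7.66 against 7.88, 7.81 and 8.05, a fall of 0.31 ± 0.09 (SE, adjusted p = 0.0163). Its groups were also apart, but the call was lost without treated replicate 2 (-0.22) or control replicate 3 (-0.25), and its other probe set differed by 0.02. Neither gene was called when arrays were centred on hybridisation controls (-0.22 for ATG4D and -0.15 for ATG16L1). ATG16L2, a paralog of ATG16L1, differed by 0.06 (-0.08 to 0.20).

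Of the ATG4 proteases, which trim ATG8 proteins before conjugation and free them afterwards, ATG4D was the 1 that passed. ATG4B, the member with the widest activity on ATG8 proteins, differed by -0.16 (-0.29 to -0.03, adjusted p = 0.0593), and 1 of its 3 probe sets was called lower, at -0.30. ATG4A differed by -0.06 (-0.19 to 0.06) and ATG4C by -0.01 (-0.14 to 0.11). For the 8 uncalled genes of this role, the 95% intervals together ran from -0.29 to 0.20.

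In the ATG8 family, 1 gene of the LC3 branch and 1 of the GABARAP branch rose. MAP1LC3B (LC3B), whose lipid-bound form is the usual marker of autophagosomes, read 12.13, 11.97 and 12.05 on treated arrays against 11.30, 11.38 and 11.42 on controls. It rose 1.61-fold (0.68 ± 0.06 SE, adjusted p = 1.32e-05), and its second probe set rose by 0.40. GABARAPL1 read 7.92, 7.86 and 7.94 against 7.28, 7.23 and 7.35, with no overlap (1.54-fold, 0.62 ± 0.06 SE, adjusted p = 1.50e-05). Its other probe set rose by 0.78, and one that also names the near-identical copy GABARAPL3 rose by 0.89, so the signals of these copies cannot be fully told apart. Whether the MAP1LC3B probe sets also read MAP1LC3B2, a near-identical copy, is not known from the annotation.

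The other three ATG8 genes moved less and did not pass. GABARAP differed by 0.09 (-0.02 to 0.21). GABARAPL2 (GATE-16) differed by 0.13 (0.01 to 0.25, adjusted p = 0.111) and passed in 5 of 18 other settings. MAP1LC3A (LC3A) differed by -0.12 (-0.25 to 0.01), and 1 of its 3 probe sets was called lower, at -0.21. Treated and control arrays lay apart in all 5 ATG8 genes, as they did in 41.5% of all genes. MAP1LC3A lay below its controls, by a narrow gap (highest treated array 9.13, lowest control 9.14). The intervals of MAP1LC3B (0.55 to 0.82) and GABARAPL1 (0.49 to 0.75) lay above those of the other three, but the difference between paralogs was not tested.

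All 4 cargo receptors rose. NBR1, a receptor for ubiquitin-tagged cargo, showed the largest rise of the 37 genes in the probe sets used, though not with all probe sets averaged, where RB1CC1, ATG14 and GABARAPL1 rose more. It read 11.95, 11.87 and 11.90 on treated arrays against 11.07, 11.04 and 11.04 on controls (1.81-fold, 0.86 ± 0.05 SE, adjusted p = 1.23e-06). Of its 4 probe sets 3 were called higher, by 0.57 to 0.86, and the other, at a mean level of 5.41, differed by 0.16. That last probe set is the one without the manufacturer's mark for matching several transcripts, and with it NBR1 was not called. OPTN (optineurin), a receptor for damaged mitochondria and bacteria, read 10.55, 10.42 and 10.60 against 9.80, 9.80 and 9.88. It rose 1.62-fold (0.70 ± 0.06 SE, adjusted p = 1.18e-05), and its second probe set rose by 0.40.

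SQSTM1 (p62), which gathers ubiquitin-tagged proteins and is itself broken down by autophagy, read 11.79, 11.75 and 11.82 against 11.38, 11.34 and 11.44. The groups were apart (1.32-fold, 0.40 ± 0.06 SE, adjusted p = 0.000254). Its 5 probe sets disagreed: 2 were called higher, both by 0.40, and the other 3 differed by -0.05 to -0.10. Averaged over all 5, the difference was 0.12 and did not pass. TAX1BP1, a receptor related to CALCOCO2, rose by 0.27 (adjusted p = 0.00773), and all 3 of its probe sets were called higher, by 0.27 to 0.61.

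Taken over every probe set that names 1 of the 37 genes alone, 37 of 94 were called higher and 5 lower. Over all 54613 probe sets 8.88% were called higher and 9.89% lower. That wider set is unlike the 94, as it includes 11721 probe sets that name no gene and 1801 that name several. No gene had probe sets called in both directions. Among the 25 genes with several probe sets, 13 had both called and uncalled ones.

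**Figure D3:**
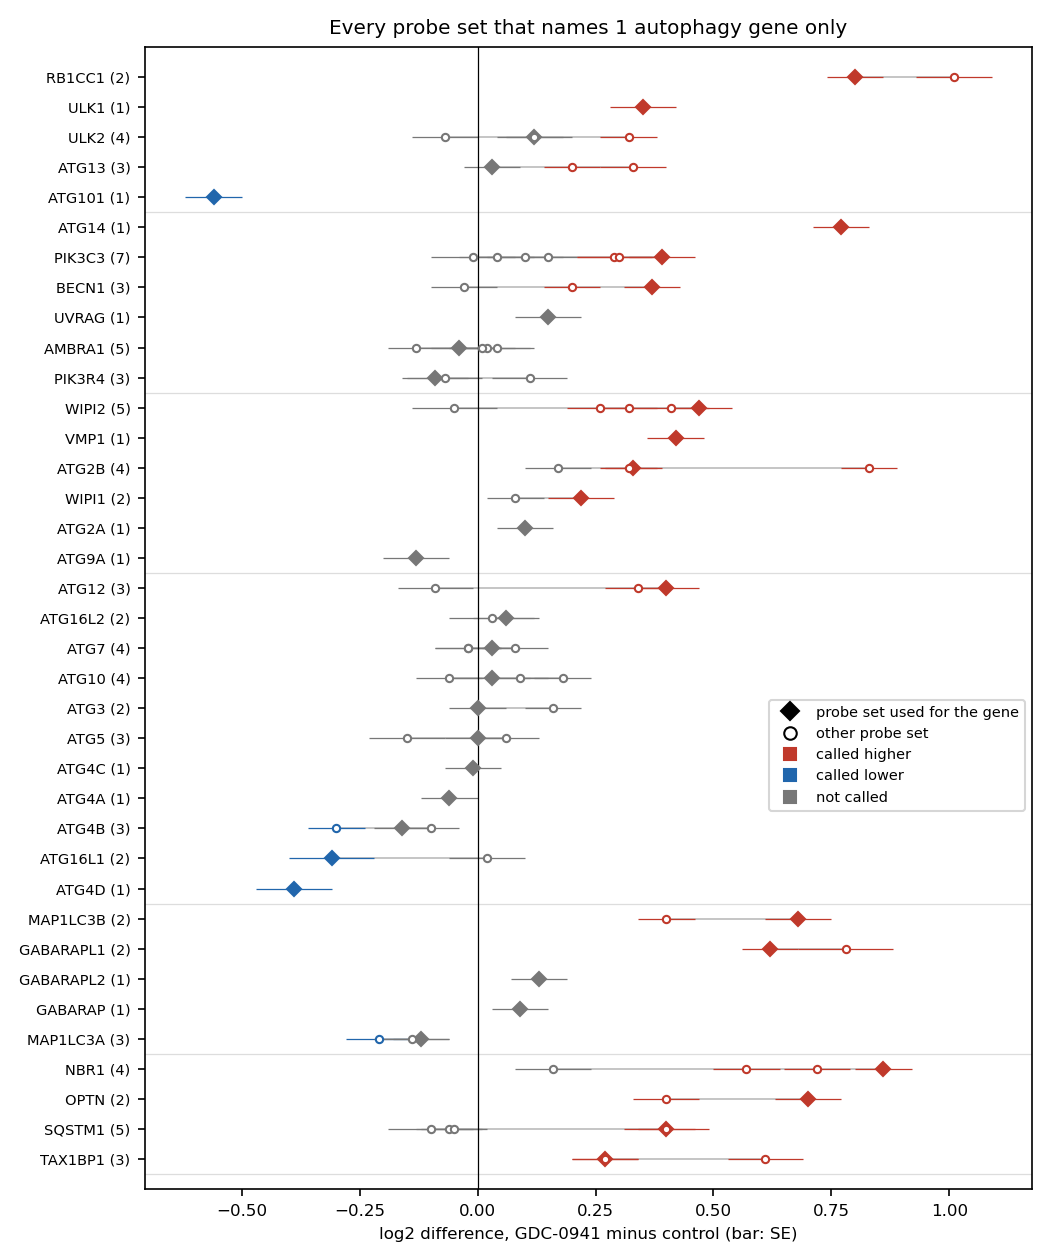
Each point is the log2 difference (GDC-0941 minus control) of 1 probe set with its SE, for every probe set that names the gene alone; the number after a symbol counts its probe sets, and diamonds mark the one used for the gene. Probe sets of WIPI2, NBR1 and TAX1BP1 lie mostly on the side of the one used, those of SQSTM1 and PIK3C3 spread from about zero to the value used, and no gene has red and blue points together.

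In each of the 16 genes called higher, treated replicate 2 read lowest of the 3 treated arrays. This held for 66.2% of all genes called higher, and that array also had the narrowest interquartile range, 2.50 against 2.57 and 2.63. Without it 16 autophagy genes were called higher and 2 lower. Leaving out any other array gave 15 higher and 2 or 3 lower.

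The direction of small differences depended on the reference. There are 18 probe sets for control transcripts that are added at hybridisation. When arrays were centred on these, the all-gene median went from -0.017 to 0.152 and that of the autophagy genes from 0.12 to 0.286. With this centring 22 of the 37 autophagy genes were called higher and 1 lower, ATG101, where 28.8% of all genes were higher and 4.53% lower. No called gene changed sign with it, but 7 uncalled ones did (PIK3R4, AMBRA1, ATG9A, ATG4A, ATG4B, ATG4C and MAP1LC3A). The medians of the roles kept the cargo receptors highest and the conjugation enzymes lowest.

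**Figure D4:**
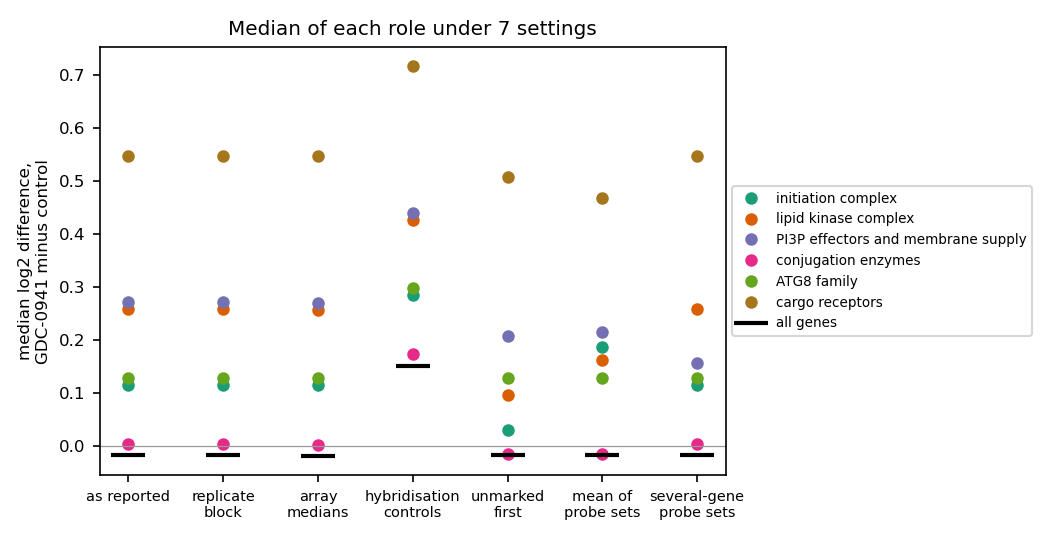
Each coloured point is the median log2 difference of 1 role, and the black bar is that of all genes, as reported and under 6 other settings of the reference or the probe set. Cargo receptors stay highest (0.468 to 0.717) and conjugation enzymes lowest in each of the 7 settings, while the order of the other roles changes with the choice of probe set.

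Of 36 other genes of the pathway, which are not on the list, 15 (41.7%) were called higher and 2 (5.56%) lower. Of all genes, 12.1% were higher and 15.6% lower. The median log2 difference of the 36 was 0.14, and that of all genes was -0.017. Among 7 further genes of the early steps 2 (28.6%) were called higher and none lower. ZFYVE1 (DFCP1), a PI3P-binding protein that marks the sites where autophagosomes form, rose 1.98-fold from a control mean of 9.71 (0.98 ± 0.06 SE, adjusted p = 8.87e-07). WDR45 (WIPI4), a PI3P effector that works with ATG2, rose by 0.36 (adjusted p = 0.00142).

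Among 14 further ATG8 genes and selective receptors, 6 (42.9%) were called higher and 1 (7.14%) lower, where 12.1% and 15.6% of all genes were. The median log2 difference of these 14 was 0.08 (-0.2 to 0.63), below the 0.55 of the 4 listed cargo receptors. CCPG1, a receptor for the endoplasmic reticulum, rose by 0.63 (adjusted p = 0.000431; 0.40 with probe sets naming several genes eligible), and BNIP3L (NIX), a receptor for mitochondria, rose by 0.44 (adjusted p = 0.000137). Of 15 genes of autophagosome fusion with lysosomes 7 (46.7%) were called higher and 1 (6.67%) lower. EPG5, a tether for that fusion, rose by 0.46 (adjusted p = 0.000479; 0.14 with all its probe sets averaged), while YKT6, a SNARE with roles in several transport steps, fell by 0.48 (adjusted p = 5.63e-05), and by 0.31 with arrays centred on hybridisation controls. The number called higher in these other genes was 9 when probe sets without the mark for several transcripts were taken first. It was 10 to 16 with 1 array left out, and the number lower fell to 1 in several settings.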

How the data were processed

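RNA of 3 GDC-0941 and 3 control samples of T47D was hybridised to Affymetrix arrays, from 6 ug of total RNA each per the labels' protocols. The deposited log2 values (3.00 to 14.81) were made by the authors with RMA, per the submitters' processing notes; the sources used here give neither its version nor the chip definition. RMA scales arrays to one distribution, which hides a change common to most transcripts, and it makes no detection call. Of 54613 probe sets that are not controls, 41091 named 1 gene; symbols were updated through Entrez identifiers. No filter on level was applied.

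The contrast GDC-0941 minus control was tested in limma 3.58.1 (R 4.3.3; functions lmFit and eBayes; both directions) with Benjamini-Hochberg adjustment over 19775 genes, and over 54613 probe sets where probe sets are counted. The fit was tested on simulated data. Every gene is named; array values are given for the 3 called genes per role with the largest change (all where fewer). Of each other list, the 2 called genes with the largest change are named, besides genes with a motif match. Members, roles and lists were chosen with earlier results of these data known. Motifs were searched in RefSeq windows with Python 3.11.15; figures used matplotlib 3.10.9. The number of arrays limits the precision (median SE 0.061 for the 37 genes).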

Additional observations from a re-analysis of the deposited data

How the results depend on the processing

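The number of autophagy genes called higher stayed within 13 to 22 over 18 other settings, and no setting turned a called gene into a call of the opposite direction. The share of all genes called higher also moved, from 8.18% (adjusted p under 0.01) to 28.8% (hybridisation control centring). Among genes above the median level 34 of the 37 were tested, with 15 called higher and 3 lower. Of all such genes 23.2% were called higher and 31.4% lower. Medians are of log2 differences. Centred on hybridisation controls, 1 gene was lower and the medians were 0.286 (all 37), 0.286 (initiation), 0.427 (lipid kinase), 0.441 (PI3P effectors), 0.173 (conjugation), 0.299 (ATG8) and 0.717 (receptors). With unmarked probe sets first the medians of initiation, lipid kinase and PI3P effector genes were 0.031, 0.096 and 0.208, and BECN1 went to -0.03 through a probe set with a mean level of 5.53. With the mean of all probe sets the initiation, lipid kinase and receptor medians were 0.188, 0.163 and 0.468. With probe sets naming several genes eligible, VMP1 went to -0.06 and the PI3P effector median to 0.157. Array weights gave an initiation median of 0.137, and leaving out 1 array 0.094 to 0.156. Unless the changed probe set is named, the cause was not tested.

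For results added after the data were seen, other genes called lower numbered 1 to 2 with 1 array left out, 1 with hybridisation control centring, array weights, all probe sets tested or an adjusted p under 0.01, and 4 among genes above the median level. Those called higher numbered 9 with unmarked probe sets first and 8 at an adjusted p under 0.01. With 1 array left out 10 to 16 other genes were called higher. The number was 12 with a replicate block or all probe sets tested, and 20 with hybridisation control centring. Probe sets of the 37 genes called lower numbered 3 to 5 with 1 array left out, 3 with quantile normalization again or an adjusted p under 0.01, and 1 with hybridisation control centring. The labels do not tie the replicate numbers of the 2 groups together. Deviations from the group means of arrays with the same number correlated at -0.35, 0.19 and -0.02. With 3 arrays per group these values cannot settle whether the arrays were paired. With a replicate block 16 of the 37 genes were called higher and 3 lower, as without it. No call among the 37 genes changed with the block.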
